A study of Mus musculus with 16 samples.

Results

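The mesothelium genes described here are Wt1, Bnc1, Upk3b, Upk1b, Msln, Muc16, Lrrn4 and Krt19. They were chosen by symbol, as a list of genes known from the mesothelium of the lung. They are 8 of the 57180 genes counted in fetal mouse lung at E14.5 (embryonic day), and all 8 were among the 17276 genes with enough counts to be tested. The 16 libraries form 4 groups of 4: C57BL/6J (B6) control, B6 BMS493, A/J control and A/J BMS493. Lungs of the BMS493 groups came from dams given this inverse agonist of all retinoic acid receptors by mouth, at 3.75 µg per g per day from E9.5 to E14.5. The controls had corn oil over the same days, and the design text gives the mice as male. The libraries were made from poly(A) RNA of whole lung, so fewer cells of a type and less RNA per cell cannot be told apart. Which fetuses had the same dam is not in the labels, so p-values measure only the spread between these libraries.

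The mesothelium is the single layer of flattened cells that covers the lung and lines the body cavities. In the fetal lung it is a source of growth factors for the tissue beneath it, and some of its cells move inward and become mesenchyme. It makes retinoic acid through Aldh1a2, and Wt1 is its best known transcription factor. Retinoic acid binds receptors that pair with RXR on repeats of the letters AGGTCA, and an inverse agonist such as BMS493 favours the repressed state of these receptors.

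With BMS493, averaged over the strains, Upk3b fell by 0.38 on the log2 scale and was the 1 gene of the 8 that passed the test, beside 1.37% of all genes. Wt1 had a difference of -0.41 with a wider interval, and its adjusted p was 0.0868. Between strains, Wt1 and Bnc1 were higher and Upk1b lower in A/J than in B6 controls, 3 of 8 called beside 16.9% of all genes. The call of Bnc1 was lost in 4 of the 16 fits without 1 library, and those of Wt1 and Upk1b held in all 16. Neither comparison moved all 8 in 1 direction. Among the libraries of B6 BMS493, replicates 2 and 3 had low Wt1 with high Krt19. These 2 libraries also had the widest spread over all genes of the 16, and the calls of the 8 genes and the counts, medians and correlations given for marker lists stand with and without them where they changed.

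Assigned counts ran from 15207539 to 24146224 per library. The SD over genes of the deviation from the group mean, in log2 CPM (counts per 1e6), was 0.154 to 0.223 outside B6 BMS493. It was 0.232, 0.248, 0.284 and 0.193 in B6 BMS493 replicates 1 to 4. The summed level of 12 lung epithelium genes was 3087 CPM in B6 BMS493 replicate 2 and 2293 in replicate 3. Elsewhere it was 1880 to 2033 CPM in B6 BMS493 replicates 1 and 4, 1816 to 2056 in B6 controls and 1484 to 1793 in the 8 A/J libraries. Of these sums Sftpc alone made up 867 CPM in B6 BMS493 replicate 2 and 590 in replicate 3. It was at 179 and 288 CPM in replicates 1 and 4 and at 248 to 341 in B6 controls, so the sums are not a level shared by all 12 genes. The response to the drug was present: Cyp26b1, which degrades retinoic acid, fell by 3.96 on the log2 scale over both strains (SE 0.20, adjusted p = 8.32e-10, edgeR), and Rarb fell by 1.29 (SE 0.15, adjusted p = 4.76e-06). B6 BMS493 replicate 3 had Rarb at 6.67 CPM, against 2.68 to 4.42 in the rest of its group and 7.89 to 9.51 in B6 controls. Its retinoic acid response list summed to 188 CPM, against 122 to 134 and 189 to 213. Cyp26b1 was at 2.47 CPM there, against 1.10 to 1.21 and 13.3 to 24.5.

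Per kilobase of exon in the GENCODE M21 annotation, Krt19 had the highest mean level of the 8 in controls of both strains, at 28.7 CPM per kb in B6 and 21.8 in A/J, followed by Upk3b at 15.9 and 17.7. The order of the next genes differed between the strains. In B6 controls it was Upk1b at 4.52 CPM per kb, Lrrn4 at 3.41, Wt1 at 1.73 and Bnc1 at 0.995, and in A/J controls Lrrn4 at 4.36, Wt1 at 2.90, Upk1b at 2.03 and Bnc1 at 1.57. Msln (0.386 in B6 and 0.157 in A/J) and Muc16 (0.205 and 0.292) were lowest, in opposite order in the 2 strains. Msln had 3 to 94 counts per library, so its values are the least precise of the set. Krt19 and the keratins in general are also made by airway epithelium, so a level in whole lung is not that of the mesothelium alone.

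The windows before the start sites of 4 of the 8 genes (Upk3b, Lrrn4, Bnc1 and Muc16) were found in the RefSeq promoter table for GRCm38.p6, and those of 3 are shown because they hold letters that nuclear receptors, TEAD factors or Sp factors are known to bind. Each covers the bases from 250 to 31 before the start, 5′ to 3′ on the strand of the gene. Capitals mark matches on either strand to AGGTCA, known from nuclear receptors, to GGAATG, known from TEAD factors, and to GGGCGG, the GC box of Sp factors. The Upk3b window lies at chr5:136038246-136038465 (plus strand), that of Lrrn4 at chr2:132880893-132881112 (minus strand) and that of Bnc1 at chr7:81992330-81992549 (minus strand).
Upk3b: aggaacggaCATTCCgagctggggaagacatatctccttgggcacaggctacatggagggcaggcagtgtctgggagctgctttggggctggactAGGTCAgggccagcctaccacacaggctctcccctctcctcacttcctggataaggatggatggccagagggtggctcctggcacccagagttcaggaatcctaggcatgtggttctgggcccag
Lrrn4: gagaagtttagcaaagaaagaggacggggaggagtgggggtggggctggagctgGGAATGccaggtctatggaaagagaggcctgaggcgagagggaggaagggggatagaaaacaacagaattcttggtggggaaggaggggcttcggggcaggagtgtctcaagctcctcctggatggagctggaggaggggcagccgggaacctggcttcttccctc
Bnc1: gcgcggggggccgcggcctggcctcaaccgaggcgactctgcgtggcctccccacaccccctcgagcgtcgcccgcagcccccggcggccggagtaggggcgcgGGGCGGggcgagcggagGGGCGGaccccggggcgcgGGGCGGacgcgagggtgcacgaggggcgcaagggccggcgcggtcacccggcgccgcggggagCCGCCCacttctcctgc
Upk3b holds 1 AGGTCA, from 155 to 150 bases before the start, and AGGTCA on either strand was in 12.5% of the 32851 promoter windows of this length. It also holds GGAATG on the opposite strand, from 241 to 236, and Lrrn4 holds GGAATG from 196 to 191. GGAATG was in 11.4% of windows. Bnc1 has 4 copies of GGGCGG, a sequence present in 28.5% of windows. Muc16 has none of these letters. The DR5 element, a spaced direct repeat of AGGTCA bound by retinoic acid receptors, was in none of the 4 windows and in 0.00913% of all. The motif GCGGGGGCG, of EGR and WT1 proteins, was likewise in none of the 4, and in 2.01% of all. These are letter matches on another build than that of the counts, and no binding was measured.

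Wt1, a zinc finger transcription factor, was measured at 10.8, 10.1, 11.4 and 10.5 CPM in replicates 1 to 4 of B6 control and at 11.6, 5.45, 6.14 and 9.02 CPM in B6 BMS493. In A/J it was at 18.5, 15.6, 16.5 and 21.3 CPM in controls and at 12.8, 12.4, 14.6 and 14.7 CPM with BMS493. All A/J controls were above all B6 controls and above all A/J BMS493 libraries, while the B6 groups overlapped through B6 BMS493 replicate 1. Bnc1 (basonuclin 1), a zinc finger protein of keratinocytes, germ cells and mesothelium, was at 5.10, 5.16, 4.55 and 3.67 CPM in B6 controls and at 7.83, 2.92, 4.27 and 5.46 CPM in B6 BMS493. In A/J it was at 7.52, 6.28, 7.10 and 8.23 CPM in controls and at 7.51, 6.38, 8.74 and 8.11 CPM with BMS493. Every A/J control exceeded every B6 control, and B6 BMS493 replicate 1 reached the A/J levels.

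Upk3b, a membrane protein of the uroplakin family, was at 58.9, 54.8, 51.6 and 59.7 CPM in B6 controls and at 49.8, 32.1, 35.7 and 45.5 CPM in B6 BMS493. In A/J it was at 59.8, 57.7, 65.8 and 66.3 CPM in controls and at 57.7, 48.6, 45.4 and 52.1 CPM with BMS493. All B6 BMS493 libraries were below all B6 controls, and in A/J the groups overlapped through BMS493 replicate 1 and control replicate 2. Upk1b, a tetraspanin of the same family, was at 9.95, 10.7, 9.05 and 8.06 CPM in B6 controls and at 9.85, 7.78, 9.94 and 8.90 CPM with BMS493. In A/J it was at 3.81, 4.16, 4.51 and 4.48 CPM in controls and at 4.13, 2.68, 3.58 and 2.97 CPM with BMS493. All 8 A/J libraries lay below all 8 B6 libraries.

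Msln (mesothelin), a surface protein held by a lipid anchor, ran from 0.989 to 1.50 CPM in B6 controls and from 0.289 to 0.683 CPM in A/J controls. With BMS493 it was at 1.36, 3.97, 2.00 and 1.03 CPM in B6 and ran from 0.139 to 0.792 CPM in A/J. All A/J libraries were below all B6 libraries, and B6 BMS493 replicate 2 was the highest. Muc16, a large membrane mucin that binds mesothelin, ran from 3.84 to 7.02 CPM in B6 controls, and from 2.54 to 6.78 in B6 BMS493. In A/J its range was 5.19 to 10.3 CPM without the drug and 5.77 to 10.3 with it, so all groups overlapped. Lrrn4, a membrane protein with leucine-rich repeats, ran from 11.8 to 14.6 CPM in B6 controls and from 15.2 to 17.0 in A/J controls. It was at 15.5 ± 1.37 CPM (SD, n = 4) in A/J BMS493 and at 21.2, 11.2, 11.8 and 14.2 CPM in B6 BMS493, where replicate 1 was the highest of the 16 libraries.

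Krt19, a keratin of simple epithelia that is also found in mesothelium, was at 48.9, 52.8, 48.1 and 63.1 CPM in B6 controls and at 39.3, 76.7, 87.0 and 50.8 CPM in B6 BMS493. In A/J it was at 42.1, 44.5, 43.4 and 32.1 CPM in controls and at 35.1, 32.9, 35.5 and 39.8 CPM with BMS493. B6 BMS493 replicates 2 and 3 were the 2 highest of all, and B6 BMS493 replicate 1 lay among the A/J values. The plot of CPM by library shows the levels of the 8 genes.

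**Figure D1:**
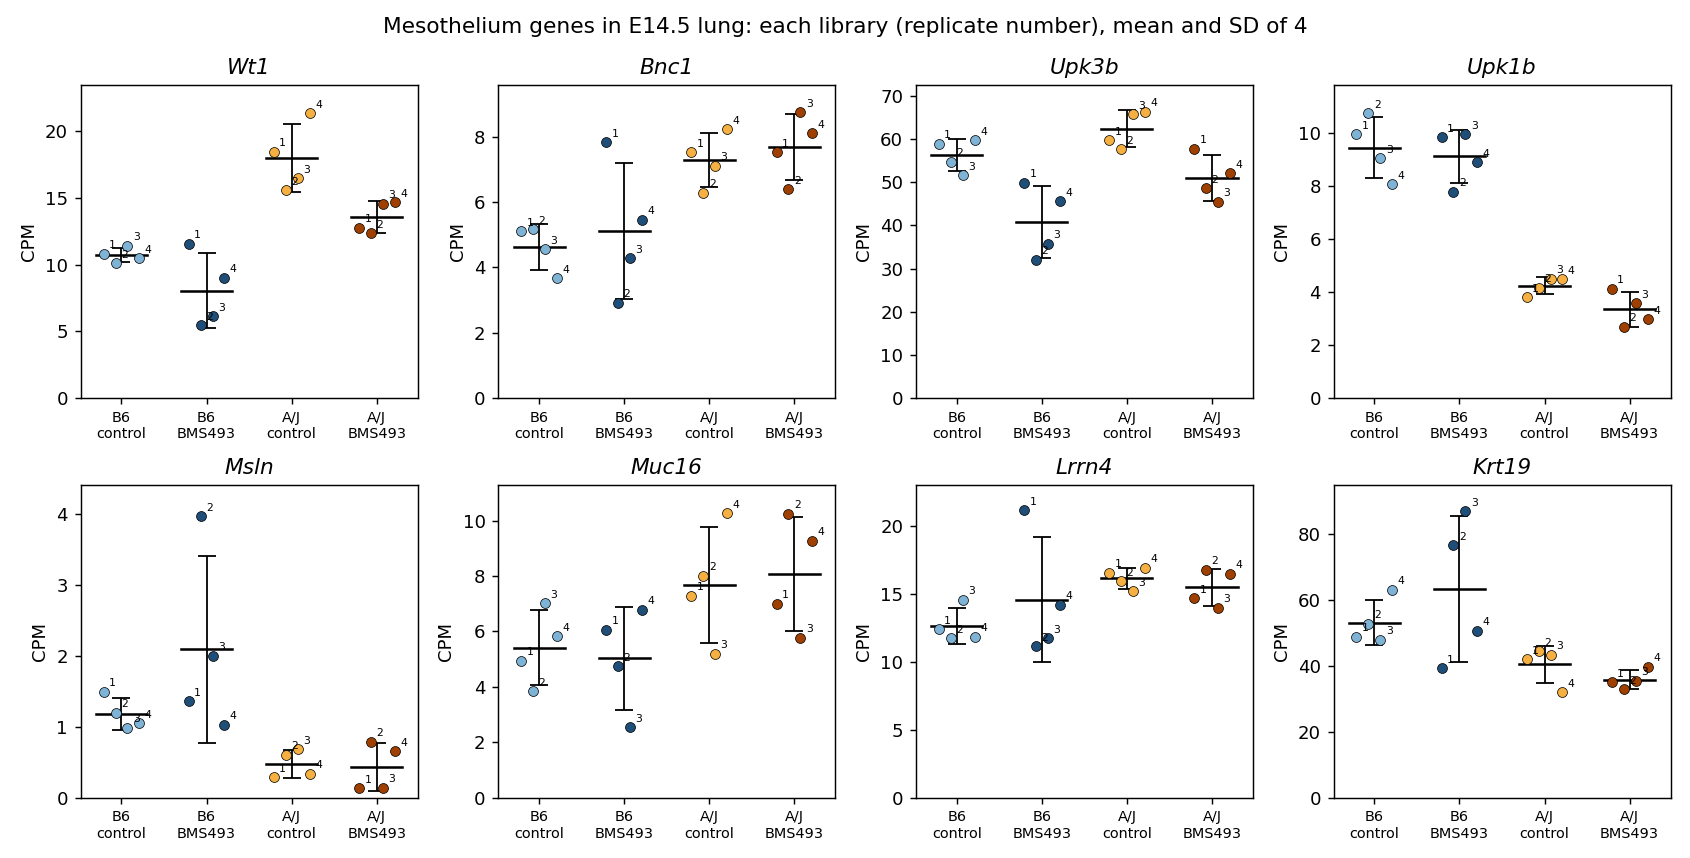
Level of each of the 8 genes in CPM (linear axis from 0) in the 4 groups. Points are libraries labelled with their replicate number, long lines are group means and bars are SD of 4 libraries; B6 BMS493 replicates 2 and 3 sit low for Wt1 and high for Krt19.

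The comparison of BMS493 with corn oil asks which genes the block of retinoic acid signalling changed. Averaged over both strains, Upk3b fell by 0.38 on the log2 scale (SE 0.07, 95% interval -0.53 to -0.22, adjusted p = 0.00789 by edgeR's quasi-likelihood test). Its mean went from 56.3 ± 3.76 to 40.8 ± 8.28 CPM (SD, n = 4) in B6, and from 62.4 ± 4.32 to 51.0 ± 5.27 CPM (SD, n = 4) in A/J. It was the only 1 of the 8 called, and 1.37% of all genes were called in this comparison. Without B6 BMS493 replicates 2 and 3 its difference was -0.27 (SE 0.06, adjusted p = 0.00709), and it passed in each of the 16 fits that left out 1 library. Wt1 had a difference of -0.41 (SE 0.12, 95% interval -0.65 to -0.17, adjusted p = 0.0868). Wt1 passed with DESeq2 (adjusted p = 0.0269) and with no filter on low counts (adjusted p = 0.00114). Leaving out B6 BMS493 replicate 1 gave Wt1 -0.52 (adjusted p = 0.00276), and leaving out replicates 2 and 3 gave -0.23 (adjusted p = 0.305). The differences of the other 6 genes did not pass. The median over the 8 genes was 0.02 against 0.00 over all genes, and -0.13 without B6 BMS493 replicates 2 and 3. Of other cell types, 3 of 10 mesenchyme genes were called in the same comparison: Dcn (-0.53) and Foxf1 (-0.33) lower and Meox2 (0.43) higher. The median of the 12 epithelium genes was 0.13, and 0.03 without the 2 libraries, with none called in either fit. Of the 6 tested heart genes none was called with all libraries and 1 without those 2, Actc1 (-0.40, adjusted p = 0.0442), beside 1.43% of all genes. The part of these cells in the difference of Upk3b was not tested.

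Within B6, none of the 8 passed at an adjusted p under 0.05, where 0.423% of all genes did. Upk3b had the smallest p, with a difference of -0.46 (SE 0.11, unadjusted p = 0.00027, adjusted p = 0.0583), and Wt1 followed at -0.41 (SE 0.17, unadjusted p = 0.0221, adjusted p = 0.446). Of the 8, 2 had an unadjusted p under 0.05, beside 9.11% of all genes. DESeq2 called 1, Upk3b (adjusted p = 0.00794), beside 0.957% of the genes it gave an adjusted p. Leaving out B6 BMS493 replicate 1 made both pass, Wt1 at -0.65 (adjusted p = 0.0339) and Upk3b at -0.58 (adjusted p = 0.00345). Upk3b also passed, just, without B6 BMS493 replicate 4 (adjusted p = 0.0446) or A/J BMS493 replicate 1 (adjusted p = 0.0495). Leaving out B6 BMS493 replicates 2 and 3 took Wt1 to -0.06 (adjusted p = 0.992) and Upk3b to -0.24 (adjusted p = 0.467). Upk3b was the 1 gene of the 8 whose B6 groups did not overlap, and 4.71% of all genes had groups that did not.

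Within A/J, none of the 8 passed either, against 0.486% of all genes. The difference of Wt1 was -0.40 (SE 0.16, unadjusted p = 0.0174, adjusted p = 0.572), and its groups, at 18.0 ± 2.54 and 13.6 ± 1.19 CPM (SD, n = 4), did not overlap. That held for 1 of the 8 genes and for 4.87% of all genes. Upk3b had a difference of -0.29 (SE 0.11, adjusted p = 0.469) and Upk1b one of -0.34 (SE 0.16, unadjusted p = 0.0423). With Wt1, these were the 3 of the 8 with an unadjusted p under 0.05, beside 6.23% of all genes. DESeq2 called 0 of the 8, beside 1.01% of the genes it gave an adjusted p. Upk3b passed (adjusted p = 0.0296) when B6 BMS493 replicates 2 and 3 were left out of the fit, as did 1.01% of all genes. Of the muscle list, which marks the diaphragm and chest wall, the summed level was 1.25 to 2.08 CPM without the drug and 3.40 to 5.09 with it, and 1 of its 3 tested genes was called, Myh8 (2.41, adjusted p = 0.0105), named after its value was seen. Its call was lost without A/J control replicate 2 (adjusted p = 0.0622) or 3 (0.0575) or A/J BMS493 replicate 4 (0.058). The part of muscle in the A/J values was not tested. The controls of each strain are shared between the comparison within that strain and the one over both strains.

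The difference of the BMS493 effect between A/J and B6 was tested as an interaction. None of the 8 passed with edgeR or DESeq2 or had an unadjusted p under 0.05 with edgeR. With edgeR 0.00579% of all genes passed and 3.68% had such a p, and with DESeq2 0.0116% passed. The interval of the difference was -0.46 to 0.48 for Wt1, -0.14 to 0.48 for Upk3b, -0.69 to 0.16 for Lrrn4 and -1.06 to 0.19 for Krt19. It was widest for Msln, at -2.43 to 0.41.

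**Figure D2:**
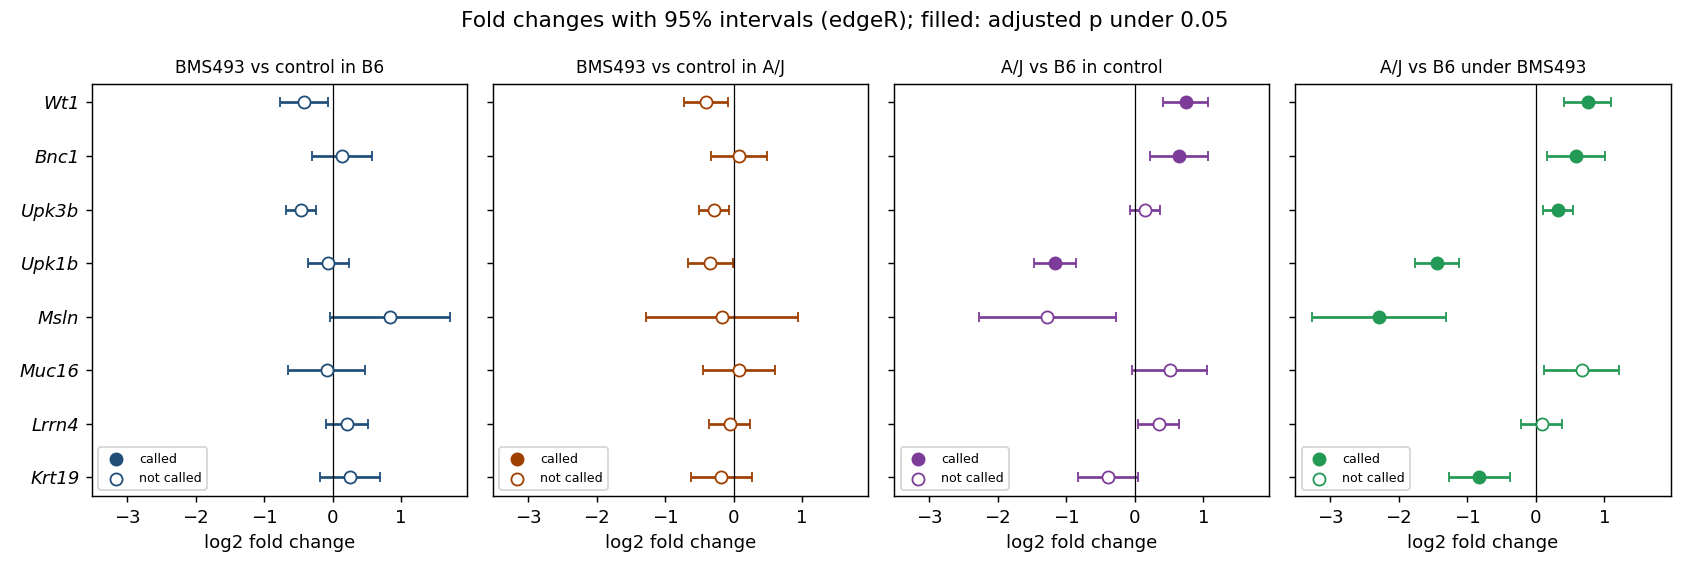
Log2 fold change of each gene with its 95% interval from edgeR in 4 comparisons (panels); filled points have an adjusted p under 0.05. None of the 8 is filled for BMS493 within a strain, 3 are filled for A/J against B6 controls and 6 for A/J against B6 under BMS493. Of all genes, 0.423% were called for BMS493 in B6, 0.486% in A/J, 16.9% between controls and 20.0% between strains under BMS493.

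The comparison of the strains asks how the lungs differed by genetic background. In controls, Wt1 was higher in A/J by 0.74 (SE 0.16, 95% interval 0.41 to 1.07, adjusted p = 0.00179, edgeR), at 18.0 ± 2.54 CPM against 10.7 ± 0.553 (SD, n = 4 in each). Bnc1 was higher by 0.64 (SE 0.21, adjusted p = 0.0319), at 7.28 ± 0.814 against 4.62 ± 0.691 CPM (SD, n = 4 in each). Upk1b was lower, with a difference of -1.16 (SE 0.15, adjusted p = 2.3e-06), at 4.24 ± 0.328 against 9.45 ± 1.15 CPM (SD, n = 4 in each). These 3 of the 8 were called, where 16.9% of all genes were. The call of Bnc1 was lost without A/J control replicate 1 (adjusted p = 0.065) or 4 (0.0921), or without B6 control replicate 3 (0.0712) or 4 (0.106), with differences of 0.55 to 0.63. Those of Wt1 and Upk1b held in all 16 fits.

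Groups did not overlap in controls for 6 of the 8 genes, against 24.3% of all genes. Besides the 3 called they were Msln at -1.27 (SE 0.49, adjusted p = 0.0743), Lrrn4 at 0.35 (SE 0.15, adjusted p = 0.104) and Krt19 at -0.39 (SE 0.20, adjusted p = 0.233). Muc16 (0.51, SE 0.26) and Upk3b (0.15, SE 0.11) overlapped. With B6 BMS493 replicates 2 and 3, which are in neither group, left out of the fit, Msln (adjusted p = 0.0326), Lrrn4 (0.0209) and Krt19 (0.0147) passed. In that fit 6 of the 8 were called, beside 22.5% of all genes, up from 16.9%. Leaving out B6 BMS493 replicate 2 alone let Msln pass (adjusted p = 0.0462), and leaving out replicate 1 alone let Lrrn4 pass (adjusted p = 0.0212). On only the groups compared, Msln (adjusted p = 0.0134), Lrrn4 (0.0118) and Krt19 (0.00912) passed. With no filter on low counts, Msln (0.0158), Lrrn4 (0.0412) and Muc16 (0.0312) did, and with the first stranded column Lrrn4 (0.0398) and Muc16 (0.0335). Bnc1 was lost with the second stranded column (0.113).

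Under BMS493, 6 of the 8 were called, and 20.0% of all genes were. Wt1 (0.75, SE 0.17, adjusted p = 0.0019), Bnc1 (0.59, SE 0.20, adjusted p = 0.0427) and Upk3b (0.32, SE 0.11, adjusted p = 0.0362) were higher in A/J. Upk1b (-1.44, SE 0.15, adjusted p = 1.03e-07), Msln (-2.28, SE 0.47, adjusted p = 0.00106) and Krt19 (-0.82, SE 0.20, adjusted p = 0.0114) were lower. The groups did not overlap for Wt1, Upk1b and Msln, which is 3 of 8 against 19.5% of all genes. Without B6 BMS493 replicates 2 and 3 only Upk1b was called, and 1 of 8 is near the 11.4% of all genes called in that fit. Wt1 was then at 0.40 (adjusted p = 0.0643), Msln at -1.46 (0.0678), Krt19 at -0.33 (0.144), Bnc1 at 0.20 (0.579) and Upk3b at 0.10 (0.594). That fit left 2 B6 libraries in the comparison.

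Single libraries also decided calls under BMS493. Upk3b no longer passed without B6 BMS493 replicate 2 (adjusted p = 0.141) or 3 (0.114), or A/J BMS493 replicate 1 (0.123) or 4 (0.0783). Bnc1 no longer passed in 8 of the 16 fits, with differences from 0.38 without B6 BMS493 replicate 2 (adjusted p = 0.181) to 0.62 without replicate 4 (0.0576). The others were B6 BMS493 replicate 3 (0.0975), A/J BMS493 replicates 1 (0.0721), 3 (0.123) and 4 (0.0933), and B6 control replicates 2 (0.0504) and 3 (0.052). Muc16 (0.67, adjusted p = 0.0786) passed without B6 BMS493 replicate 4 (0.0389) or A/J BMS493 replicate 3 (0.045). It also passed with DESeq2 (0.0349), no filter (0.000943), the replicate block (0.0393) and the first stranded column (0.0312). On only the groups compared Upk3b (adjusted p = 0.109) and Bnc1 (0.125) no longer passed, and Bnc1 was also lost with the second stranded column (0.122). Lrrn4 (0.09, adjusted p = 0.734) passed without B6 BMS493 replicate 1 (0.33, adjusted p = 0.0443).

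Markers of other cell types were read in the same comparisons. The epithelium list had 2 of 12 genes lower in A/J controls, Sftpc at -1.79 and Epcam at -0.24, beside 16.9% of all genes. With B6 BMS493 replicates 2 and 3 left out it was 5 of 12, beside 22.5% of all genes, with Cldn18 (-0.61, adjusted p = 0.00932), Nkx2-1 (-0.27, 0.00695) and Cdh1 (-0.25, 0.0109) added. Under BMS493 4 of 12 were lower, beside 20.0% of all genes. The call of Cdh1 was lost in 3 of the 16 fits without 1 library, and those of Sftpc, Cldn18 and Epcam held in all 16. Without B6 BMS493 replicates 2 and 3, 2 of 12 were lower under BMS493, beside 11.4% of all genes, with Cldn18 (-0.49, adjusted p = 0.0986) and Cdh1 (-0.22, adjusted p = 0.103) no longer called. The mesenchyme list summed to 4246 to 4472 CPM in B6 controls and 2562 to 3379 in A/J controls, and these ranges did not overlap. Most of that sum is Col1a1, at 3031 to 3212 CPM in B6 controls and 1406 to 2102 in A/J controls, so it mainly follows this gene. Of the 10 mesenchyme genes 4 were lower in A/J controls: Col1a1 (-0.75), Dcn (-0.62), Meox2 (-0.48) and Tcf21 (-0.35). The call of Col1a1, a collagen, was lost in 7 of the 16 fits without 1 library, those without any B6 control or A/J control replicate 2, 3 or 4, with adjusted p up to 0.0921. Under BMS493 3 of the 10 were lower, Col1a1 (-0.73), Tcf21 (-0.42) and Meox2 (-0.32), and 1 higher, Pdgfra (0.16, adjusted p = 0.0479). There the call of Col1a1 was lost without any 1 of the A/J BMS493 libraries (adjusted p up to 0.0783), and that of Pdgfra held in 5 of the 16 fits. In controls 2 mesenchyme genes were higher and 4 lower when B6 BMS493 replicates 2 and 3 were left out, with Pdgfra (0.14, adjusted p = 0.0472) and Wnt2 (0.20, 0.0398) added, and the counts under BMS493 were the same. The list of kidney and gonad cells that express Wt1 summed to 8.97 to 11.2 CPM in B6 controls and 17.1 to 19.8 in A/J controls, with Nphs1 at 0 in all libraries of the other 3 groups. Most of that sum is Gata4, at 16.1 ± 1.28 CPM in A/J controls and 8.63 ± 0.632 in B6 controls (SD, n = 4 in each). Of the 2 tested genes of this list 1, Gata4, was called higher in A/J in controls and under BMS493, beside 16.9% and 20.0% of all genes. Its calls held in all 16 fits without 1 library, with differences of 0.84 to 0.95 in controls and 1.13 to 1.42 under BMS493. The heart list summed to 79.5 to 94.3 CPM in B6 controls and 42.8 to 79.9 in A/J controls, with Nppa at 0 in all 16 libraries. Of its 6 tested genes 1 was lower in A/J controls, Tnnt2 (-1.50, adjusted p = 0.00596), and 1 under BMS493, Myh7 (-1.34, adjusted p = 0.0238). The call of Myh7 was lost without B6 BMS493 replicate 2 (adjusted p = 0.175) or A/J BMS493 replicate 1 (0.0699), 3 (0.0774) or 4 (0.0528). In the fit that left out B6 BMS493 replicates 2 and 3, Tnni3 (-0.79, adjusted p = 0.0437) was also lower in controls, and under BMS493 Myh7 (-0.41, adjusted p = 0.574) was not called and Actc1 (0.48, adjusted p = 0.0444) was higher. Of 4 tested genes of oesophagus and stratified epithelium, 1 was lower in A/J controls, Krt4 (-1.74, adjusted p = 0.0457), and 2 under BMS493, Krt15 (-0.87, adjusted p = 0.00501) and Krt4 (-3.13, 0.00446). In controls the call of Krt4, which had a mean under 1 CPM, held in 7 of the 16 fits without 1 library. When B6 BMS493 replicates 2 and 3 were left out, Krt15 (-0.56, adjusted p = 0.0277) was called too in controls, and under BMS493 neither Krt15 (-0.50, 0.199) nor Krt4 (-1.93, 0.232) was. Of 2 tested liver genes Alb, albumin, was lower in A/J controls (-3.16, adjusted p = 0.0294), at 0.200 ± 0.0864 against 1.86 ± 2.23 CPM (SD, n = 4 in each). Its call was lost without B6 control replicate 1 (-1.86, adjusted p = 0.104), without any 1 of the A/J controls (0.0557 to 0.0856), and without B6 BMS493 replicates 2 and 3 together (0.0523). Of 3 tested muscle genes Myh8 was higher in A/J under BMS493 (2.21, adjusted p = 0.0013), in each of the 16 fits, and Tnnt3 (-0.89, adjusted p = 0.0574) was called lower in controls once those 2 libraries were left out (0.0443). Krt4, Alb and the muscle genes were named after their values were seen. The share of fragments that mapped to several places was 3.16 ± 0.156% in the 8 B6 libraries and 3.90 ± 0.134% in the 8 A/J libraries (SD). The share assigned to genes was 74.0 to 76.9% in the B6 libraries and 71.7 to 75.8% in the A/J libraries. The part of these differences in the strain results was not tested. GRCm39 is the only genome named for the counts of both strains, and the effect of strain sequence on the counts of single genes was not tested.

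A further 20 mesothelium genes were listed, of which 19 were tested. In A/J controls 4 were higher and 7 lower, where 16.9% of all genes were called, with a median of -0.25 against 0.01 over all genes. Leaving out B6 BMS493 replicates 2 and 3, 5 were higher and 9 lower, beside 22.5% of all genes, with Aldh1a2 (0.37, adjusted p = 0.000623), Pdpn (-0.34, 0.0117) and Bcam (-0.34, 0.0149) added. Those higher were Tbx18 (0.77), Crb2 (0.64), Fgf9 (0.48) and Rspo1 (0.38), which encode a T-box factor, a polarity protein, a growth factor and a Wnt agonist. The 4 lower genes with the largest differences were Igfbp6 (-2.14), C3 (-1.09), Efemp1 (-1.07) and Krt18 (-0.81), the last a keratin that epithelium also makes. Crb2, Igfbp6, Efemp1 and Krt18 were called in each of the 16 fits that left out 1 library. Tbx18, Fgf9 and C3 lost their call in 5 of these fits each and Rspo1 in 4, in each case without 1 of the control libraries, with adjusted p up to 0.123 for Tbx18 (without B6 control replicate 4), 0.173 for Fgf9 (without B6 control replicate 2), 0.118 for C3 (without A/J control replicate 1) and 0.111 for Rspo1 (without B6 control replicate 3). Under BMS493, 3 were higher and 10 lower in A/J, where 20.0% of all genes were called, with a median of -0.37 against 0.00. Those higher, Tbx18, Rspo1 and Aldh1a2, each lost their call in 2 of the 16 fits without 1 library. With B6 BMS493 replicates 2 and 3 left out, none was called higher and 7 lower, beside 11.4% of all genes, and the median was -0.21. Tbx18 (0.52, adjusted p = 0.259), Rspo1 (0.24, adjusted p = 0.221), Aldh1a2 (0.27, adjusted p = 0.0581), Igfbp6 (-0.74, adjusted p = 0.32), Pdpn (-0.21, adjusted p = 0.335) and Bcam (-0.24, adjusted p = 0.228) were then no longer called. For the effect of BMS493 averaged over strains, 1 of the 19 was called, beside 1.37% of all genes. It was Calb2 (calretinin, a calcium-binding protein of mesothelium and neurons), which fell by 1.21 (SE 0.21, adjusted p = 0.00799). Without B6 BMS493 replicates 2 and 3 its difference was -1.05 (adjusted p = 0.0178), and 1.43% of all genes were called in that fit.

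Calb2 was at 15.1, 16.6, 13.6 and 16.8 CPM in B6 controls and at 11.01, 2.75, 6.34 and 3.68 CPM in B6 BMS493. In A/J it was at 14.8, 16.1, 15.5 and 14.6 CPM in controls and at 9.28, 7.39, 4.98 and 8.26 CPM with BMS493. Controls and BMS493 libraries did not overlap in either strain, and Calb2, like Upk3b, was highest among the BMS493 libraries of its strain in replicate 1.

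**Figure D3:**
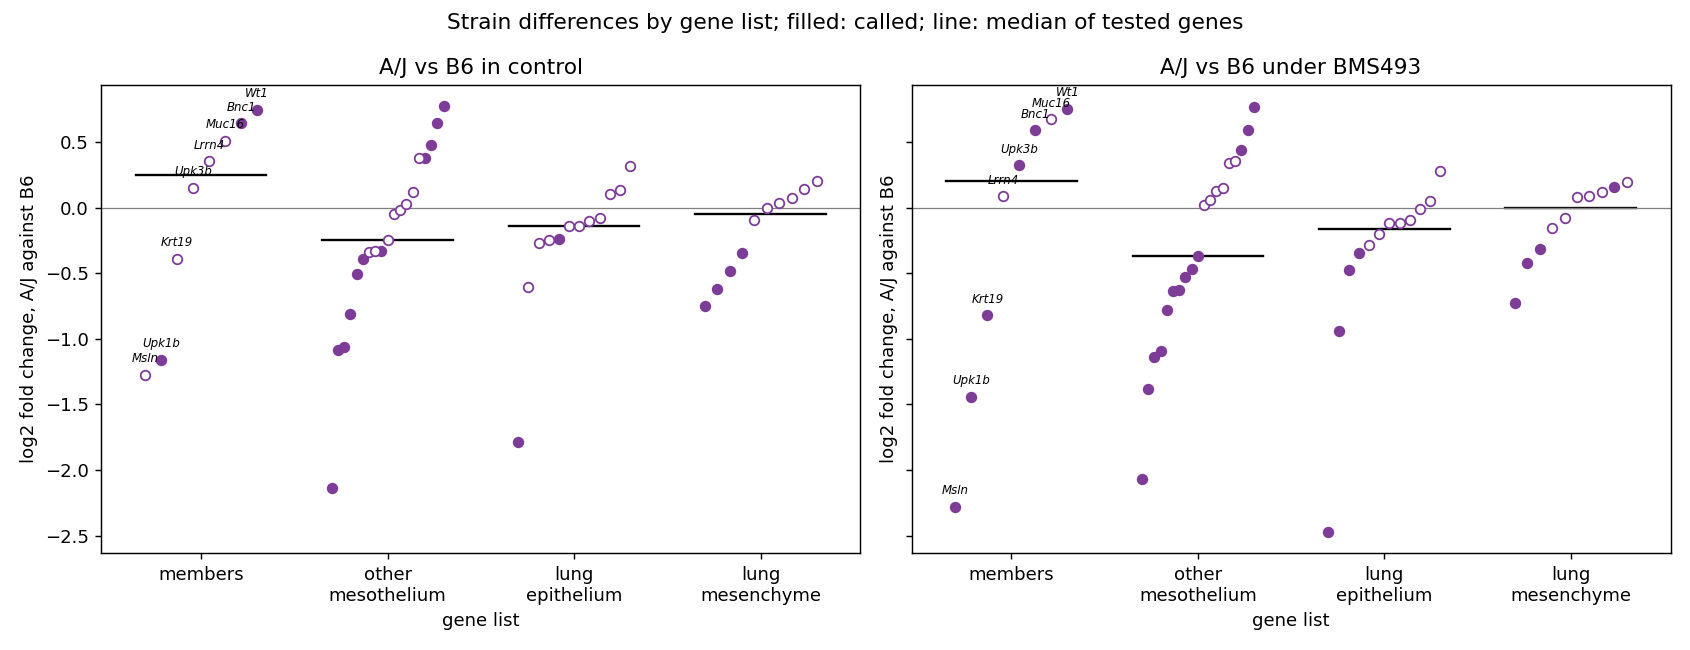
Log2 fold change of A/J against B6 for the genes of 4 lists, in controls (left) and under BMS493 (right). Each point is a gene, filled where called, and lines are medians of the tested genes; in controls the 8 genes run from Msln at -1.27 to Wt1 at 0.74, and the other mesothelium genes from Igfbp6 at -2.14 to Tbx18 at 0.77.

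The genes were next compared by how libraries of the same group differ, as deviations of log2 CPM from the group mean over 16 libraries. Bnc1 varied with Wt1 (Pearson r = 0.888, permutation p = 0.00161, adjusted over 7 genes 0.0113), with Spearman rho = 0.841 (adjusted permutation p = 0.0135). Lrrn4 also varied with it (r = 0.832, permutation p = 0.00852, adjusted 0.0298; rho = 0.597, adjusted permutation p = 0.115). Krt19 went the opposite way (r = -0.851, permutation p = 0.0206, adjusted 0.0481; rho = -0.676, adjusted permutation p = 0.115). Upk3b (r = 0.735), Msln (-0.545), Muc16 (0.513) and Upk1b (0.205) did not pass, with adjusted permutation p = 0.117, 0.106, 0.193 and 0.474. Labels were permuted within groups, two-sided.

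These calls, by Pearson's r, depended on single libraries. That of Krt19 was lost in 10 of the 16 fits without 1 library, with r from -0.896 to -0.718 over the 16: without any 1 of B6 BMS493 (adjusted permutation p = 0.0899 to 0.139) or of A/J controls (0.0587 to 0.166), and without B6 control replicate 3 (0.0614) or 4 (0.0517). It was also lost with the summed stranded counts (0.0539). That of Lrrn4 was lost in 6: without any 1 of B6 BMS493 (adjusted permutation p = 0.104 to 0.163), B6 control replicate 3 (0.0614) or A/J control replicate 4 (0.0576). That of Bnc1 was lost in 1, without B6 BMS493 replicate 1, and Msln passed in 1, without A/J BMS493 replicate 4 (r = -0.644, adjusted permutation p = 0.041). By Spearman's rho Bnc1 still passed without B6 BMS493 replicate 1 (rho = 0.771, adjusted permutation p = 0.0343), and was lost without A/J control replicate 2 (0.0605) or 4 (0.0703) or A/J BMS493 replicate 1 (0.0665). The libraries farthest from the median of Wt1 were B6 BMS493 replicates 1 and 2, and without them r was 0.678 for Bnc1, 0.533 for Lrrn4 and -0.730 for Krt19. Without replicates 2 and 3, r over 14 libraries was 0.721 for Bnc1 (adjusted permutation p = 0.103), 0.565 for Lrrn4 (0.277) and -0.593 for Krt19 (0.277), and none of the 7 passed, nor did any rho (0.0623 for Bnc1). For Upk3b it went from 0.735 to 0.145. Without replicate 1 alone no Pearson's r passed either, with 0.785 for Bnc1 (adjusted permutation p = 0.0661). Of 14543 genes with a mean of at least 1 CPM, 0.0688% had an r with Wt1 as high as that of Bnc1, 0.419% as high as that of Lrrn4 and 1.70% as high as that of Upk3b, and 0.578% one as low as that of Krt19.

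**Figure D4:**
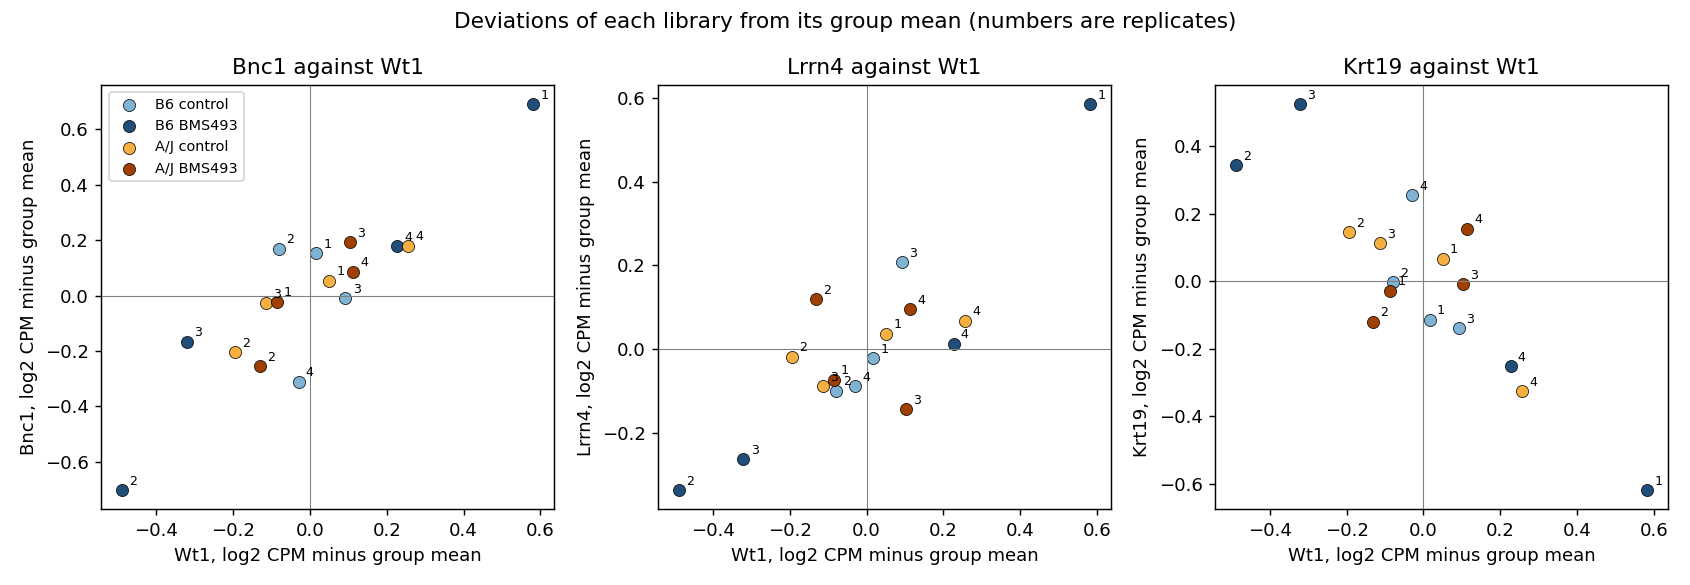
Deviation of Bnc1, Lrrn4 and Krt19 from the group mean (vertical axes, log2 CPM) against that of Wt1 (horizontal axes), 1 point per library, coloured by group and labelled with the replicate number. B6 BMS493 replicates 1, 2 and 3 lie at the ends of each panel, and r is 0.888, 0.832 and -0.851 over 16 libraries.

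Marker lists of other cell types moved with the same libraries, and their r is given as a description over 16 libraries, each of 1 depth for all genes. The mean deviation of the 12 epithelium genes had r = -0.758 with Wt1, -0.855 with Bnc1, -0.569 with Upk3b, -0.570 with Upk1b, -0.520 with Lrrn4, -0.088 with Muc16, 0.650 with Msln and 0.580 with Krt19. When B6 BMS493 replicates 2 and 3 were left out, these r were -0.593 with Wt1, -0.674 with Bnc1, 0.0046 with Upk3b, -0.526 with Upk1b, -0.097 with Lrrn4, 0.076 with Muc16, 0.433 with Msln and 0.458 with Krt19. The 10 mesenchyme genes had r = 0.527 with Lrrn4, 0.276 with Wt1 and -0.204 with Krt19, and 0.349, -0.190 and 0.263 without those 2 libraries. With the other 5 genes it ran from -0.281 to 0.267, and from -0.443 to 0.424 without them. The 6 tested genes of the heart list had r = -0.737 with Wt1, -0.623 with Muc16 and 0.725 with Krt19, and -0.613, -0.446 and 0.526 without those 2 libraries. With the other 5 it ran from -0.575 to 0.222, and from -0.279 to 0.044 without them. The 4 genes of oesophagus and stratified epithelium had r = -0.638 with Bnc1, -0.486 with Wt1, 0.631 with Msln and 0.611 with Krt19, and -0.313, 0.055, 0.451 and 0.380 without the 2 libraries. With the other 4 it ran from -0.501 to -0.076, and from -0.473 to 0.395 without them. Over the liver, muscle, and kidney and gonad lists, r ran from -0.495 to 0.491, and from -0.489 to 0.528 without them. For the 19 other mesothelium genes, r was -0.401 with Wt1 and 0.240 with Krt19, and -0.321 and 0.045 without them, and with the other 6 it ran from -0.328 to 0.518, and from -0.269 to 0.458. The 8 retinoic acid response genes had r from -0.293 with Muc16 to 0.288 with Krt19, and from -0.499 with Lrrn4 to 0.778 with Krt19 without the 2 libraries. Sftpc, the surfactant gene of distal epithelium, was at 867 CPM in B6 BMS493 replicate 2 and 590 in replicate 3, against 179 in replicate 1 and 248 to 341 in B6 controls. The summed mesenchyme list was at 6689 CPM in B6 BMS493 replicate 3 and at 3782 to 4043 in the other libraries of that group. Most of this sum is Col1a1, at 5613 CPM in replicate 3 against 2554 to 2840 CPM. The higher sum of replicate 3 is thus that of Col1a1 and not of the list at large. The part of these other cell types in the variation of the mesothelium genes was not tested.

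**Figure D5:**
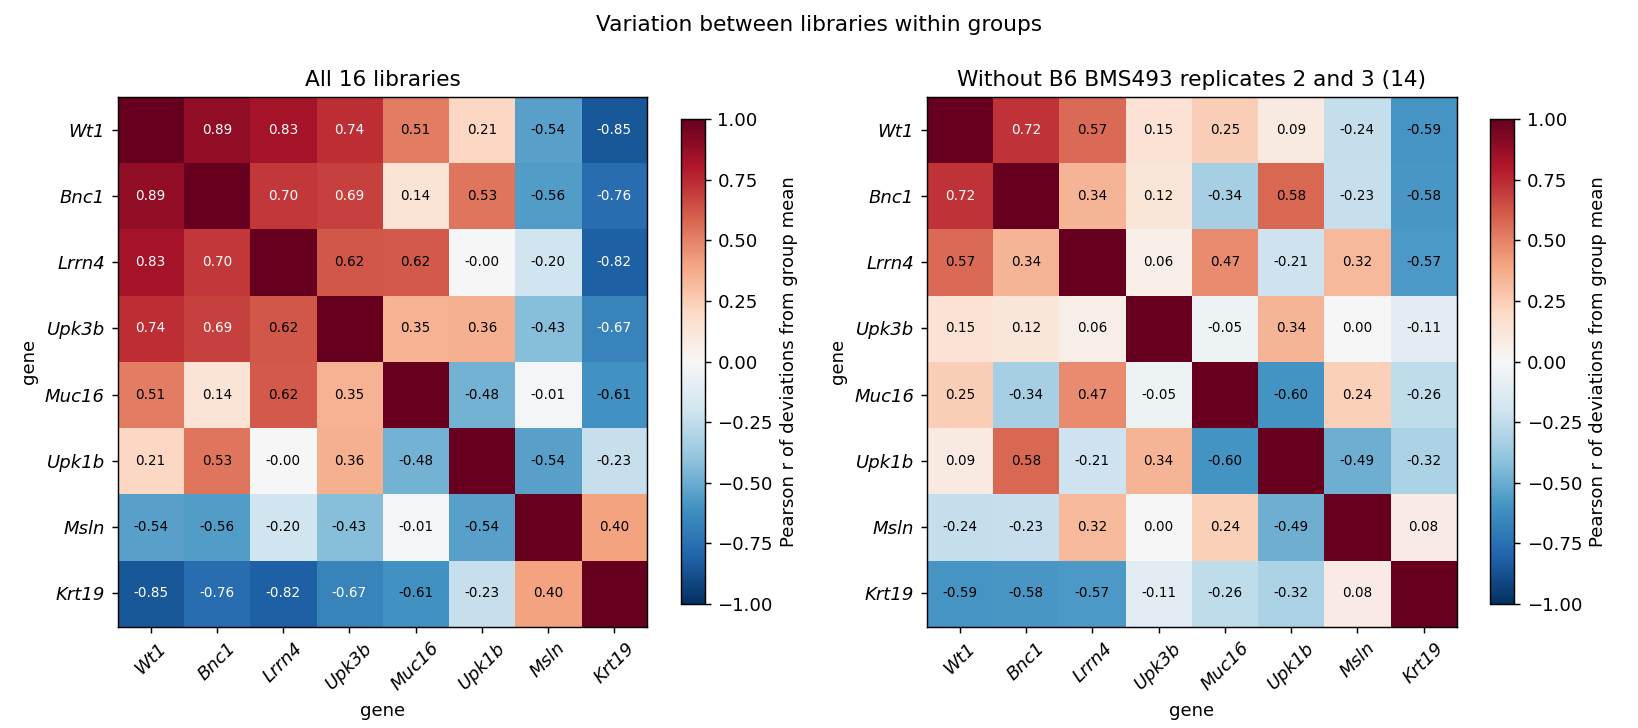
Pearson r between deviations from the group mean for each pair of the 8 genes, over 16 libraries (left) and without B6 BMS493 replicates 2 and 3 (right). Red is positive and blue negative; for Wt1 and Krt19 r is -0.85 on the left and -0.59 on the right.

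The genes outside the 8 whose deviations were most like the scaled mean of theirs were Ipo11 and Iars (both r = 0.935), Rspo2 (0.915), Zfp423 (0.903), Ust (0.895), Wasf1 (0.894), Smarcc1 (0.891) and Igf2bp2 (0.891), of 14370 ranked over 16 libraries. Without B6 BMS493 replicates 2 and 3, their r ran from 0.686 for Wasf1 to 0.926 for Ipo11.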

How the data were processed

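RNA of 16 E14.5 lungs was sequenced after poly(A) selection. The authors deposited raw counts per gene and library; FastQC, cutadapt, STAR and GRCm39 are named in the submitters' processing notes, and their versions and the annotation are not given in the sources used here. Lines that name no gene (unmapped, multimapping, no feature, ambiguous) held 23.1 to 28.3% of fragments and were left out. The first strand column held 51.0 to 52.0% of the stranded counts, so the column regardless of strand was used. Symbols came from GENCODE M21, which matched 51884 of 57180 identifiers with 98.9% of counts.

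Genes were filtered with filterByExpr (39904 removed), scaled with TMM and fitted with the robust quasi-likelihood model of edgeR 4.0.16 in R 4.3.3, with 1 coefficient per group over all 16 libraries and 12 residual degrees of freedom. Tests are two-sided, and adjusted p-values are Benjamini-Hochberg over 17276 genes, with a call under 0.05. Intervals are 95%. Log2 CPM used a prior count of 2. Tested on simulated data for BMS493 against control in B6 (16995 genes), the fit recovered 95% of genes changed by 1 and 99% of those changed by 2 on the log2 scale, and 6.28% of its calls were false. The simulation gave each gene the same dispersion in all groups and changed only genes above a set level. It does not show what share of smaller differences, as for Wt1 and Upk3b, would be called, or how the wider spread of B6 BMS493 acts. Correlations used 100000 permutations within groups (Python 3.11.15, scipy 1.17.1). Every pair of replicates differed by more than counting error (chi-square per gene 3.34 to 27.5), so all 16 libraries count.

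The 8 genes are always named. From each marker list at most 4 called genes per comparison and direction are named, by size of the difference and with a mean of at least 1 CPM, and 8 genes most like the members. The plan allowed 4 per comparison, so the 4 other mesothelium genes higher in A/J controls were named beyond it. List genes whose call changed without B6 BMS493 replicates 2 and 3 were named after their values were seen. The members and lists were chosen with earlier results of these data known. Reads shared with other genes are few: Msln had 2.88% and Bnc1 1.09% of its 50-base windows elsewhere in the M21 transcripts, and Bnc1 overlaps 4833418N17Rik on the opposite strand by 98 bases. Alternatives were RLE scaling, DESeq2 1.42.0, other filters, a fit on only the groups compared, a replicate block, a library number covariate, the stranded columns and leaving out each library.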

Additional observations from a re-analysis of the deposited data

How the results depend on the processing

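Of 1280 refits of the 48 member differences, 1166 kept direction and call, 55 reversed, 34 passed newly and 25 no longer passed; none of the reversed differences was called with all libraries. The cause of these changes was not tested. Members called are given with the share of all genes called in the same fit. In B6 they were 1 with DESeq2 (0.957%), with no filter (0.743%) and with the second stranded column (0.394%), and 0 to 2 over fits without 1 library (0.153 to 1.14%). Averaged over strains they were 2 with DESeq2 (2.49%) and with no filter (1.39%), and 1 to 2 without 1 library (0.936 to 2.1%). In controls of A/J against B6 they were 6 with no filter (9.22%) and on only the groups compared (22.6%), 5 with the first stranded column (13.9%), and 2 to 4 without 1 library (up to 19.7%); under BMS493 they were 4 to 7 (14.6 to 22.1%). The number of Pearson correlations with Wt1 that passed was 0 to 4 without 1 library. The fit with all libraries did not pair them by replicate number. Deviations of same-numbered libraries correlated at -0.156 to 0.247, not above 0.1 for every number in any pair of groups. These values cannot show whether same-numbered libraries were handled together. With the replicate block, 1 member was called in B6 (Upk3b, adjusted p = 0.00743; 0.411% of all genes) and 2 averaged over strains (Upk3b and Wt1, adjusted p = 0.0339; 1.5%). It called 4 in controls (Msln added, adjusted p = 0.0432; 17.2%) and 7 under BMS493 (Muc16 added, 0.0393; 20.1%).

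Leaving out B6 BMS493 replicates 2 and 3 was chosen after seeing the data. It gave 1 member called within A/J (Upk3b, adjusted p = 0.0296; 1.01% of all genes), 6 in controls (22.5%), 1 under BMS493 (11.4%, near its share of the 8) and 0 correlations. It reversed the differences of Krt19 (-0.25) and Muc16 (0.25) in B6, of Msln (-0.079), Krt19 (-0.21) and Muc16 (0.16) averaged over strains, of Wt1 (-0.34), Upk3b (-0.050), Krt19 (0.062) and Muc16 (-0.17) for the interaction, and of Lrrn4 (-0.20) under BMS493. The first stranded column reversed Upk1b (0.00020) and Muc16 (0.087) in B6, Muc16 averaged (0.077) and Muc16 for the interaction (-0.020). The second reversed Krt19 averaged (-0.00013), Wt1 for the interaction (-0.063) and Lrrn4 under BMS493 (-0.0063).

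Without 1 library, signs also changed in B6 for Upk1b (-0.13 to 0.012), Lrrn4 (-0.035 to 0.32), Muc16 (-0.25 to 0.11) and Bnc1 (-0.16 to 0.34). They changed in A/J for Msln (-0.66 to 0.12) and Muc16 (-0.075 to 0.24), and averaged for Lrrn4 (-0.048 to 0.13), Krt19 (-0.056 to 0.12), Muc16 (-0.089 to 0.094) and Bnc1 (-0.040 to 0.21). They changed for the interaction of Wt1 (-0.15 to 0.25), Muc16 (-0.033 to 0.33) and Bnc1 (-0.27 to 0.24), for Lrrn4 under BMS493 (-0.031 to 0.33) and for r of Upk1b with Wt1 (-0.031 to 0.329). Over all genes, fits without 1 library called 27 to 201 genes in B6 (201 without B6 BMS493 replicate 1, 27 without B6 control replicate 1, 28 to 37 without each other B6 control, 32 without B6 BMS493 replicate 2), 52 to 121 in A/J (52 without A/J BMS493 replicate 3, 55 without A/J control replicate 1 or 2) and 165 to 371 averaged over strains (371 without B6 BMS493 replicate 1). With all libraries, calls were 73 in B6 (159 with DESeq2, 260 with no filter, 27 on only the groups compared) and 84 in A/J (158, 178 and 133; 183 without both libraries). They were 237 averaged (397 and 487), 1 for the interaction (2 and 12) and 3447 under BMS493 (2062 without both libraries). Depth limits Msln most, with as few as 3 counts.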
